A study of Mus musculus with 24 samples.

Results

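The brain matrix genes described here are 10 genes for proteoglycans and the proteins that bind or modify them: the lecticans Bcan, Ncan and Vcan, the link protein gene Hapln1, the tenascins Tnr and Tnc, the transmembrane proteoglycans Ptprz1 and Cspg5, the glypican Gpc5 and the sulphotransferase Chst2. A probe set belonged to them when its annotated gene symbol was 1 of the 10, which gave 28 of the 45101 probe sets of the Affymetrix mouse array, and the brightest probe set of each gene stood for it among 18194 genes. The genes were chosen by their matrix roles with measured calls known, those of Bcan and Gpc5 as lower in enucleated than control VB at birth. Expression was measured in the ventrobasal complex (VB, the somatosensory thalamic nucleus) and the dorsal lateral geniculate nucleus (dLGN, the visual one), each microdissected from wild-type mice on a C57BL/6 background. The mice were embBE, in which both eyes had been cauterized in utero, or non-enucleated controls, and they were taken at P4 or at P0. The VB groups held 3 embBE and 3 control arrays at P4 and again 3 and 3 at P0. The dLGN groups held 3 embBE and 3 control arrays at P4, and 4 embBE and 2 control arrays at P0. Every sample was tissue pooled over littermates of 1 condition, so no array stands for a single animal, and the number of arrays sets the precision. Each array is named by the pair of numbers in its label, whose meaning is not stated, and because separate litters are not stated, p-values cover only array-to-array spread that may be technical.

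The lecticans are chondroitin sulphate proteoglycans that bind hyaluronan at one end and tenascins at the other. Link proteins such as Hapln1 lock that bond, and tenascin-R joins neighbouring lecticans into the mesh that later surrounds many neurons as perineuronal nets. In the perinatal brain the same molecules line the paths of growing axons, where versican, neurocan, tenascin-C and phosphacan (the secreted form of Ptprz1) are known to bind adhesion molecules and to guide or limit outgrowth. Astrocytes, radial glia and oligodendrocyte precursors are known sources of most of them, and relay neurons of some.

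The 250 bases upstream of the annotated start are given for the 5 genes that differed between P4 and P0 in VB, all from RefSeq on the mouse build GRCm38.p6, 5′ to 3′ along the gene's strand, with each motif found in capitals. Tnr lies on chr1:159523519-159523768 (plus strand), Bcan on chr3:88000357-88000606 (minus strand), Ptprz1 on chr6:22875252-22875501 (plus strand), Gpc5 on chr14:115091965-115092214 (plus strand) and Chst2 on chr9:95407271-95407520 (minus strand).
Tnr: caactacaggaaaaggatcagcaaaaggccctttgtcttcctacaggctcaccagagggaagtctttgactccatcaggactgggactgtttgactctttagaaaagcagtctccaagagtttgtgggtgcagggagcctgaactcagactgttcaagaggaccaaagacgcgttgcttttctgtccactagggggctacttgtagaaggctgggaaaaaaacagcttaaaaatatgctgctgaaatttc
Bcan: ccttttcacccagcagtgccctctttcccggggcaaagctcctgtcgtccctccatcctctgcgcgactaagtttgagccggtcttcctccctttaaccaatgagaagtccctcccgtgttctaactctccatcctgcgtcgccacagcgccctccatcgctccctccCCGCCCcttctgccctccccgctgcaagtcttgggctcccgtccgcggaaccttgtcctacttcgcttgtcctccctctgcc
Ptprz1: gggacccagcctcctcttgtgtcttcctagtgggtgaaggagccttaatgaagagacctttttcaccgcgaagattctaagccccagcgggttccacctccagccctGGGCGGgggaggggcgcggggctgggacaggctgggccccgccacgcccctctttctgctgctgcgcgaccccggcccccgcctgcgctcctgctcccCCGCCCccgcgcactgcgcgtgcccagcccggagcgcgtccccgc
Gpc5: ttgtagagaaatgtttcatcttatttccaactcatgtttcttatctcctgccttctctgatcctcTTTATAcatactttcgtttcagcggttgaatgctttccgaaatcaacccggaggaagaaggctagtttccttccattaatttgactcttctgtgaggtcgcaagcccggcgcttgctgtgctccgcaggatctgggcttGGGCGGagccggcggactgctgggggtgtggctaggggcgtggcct
Chst2: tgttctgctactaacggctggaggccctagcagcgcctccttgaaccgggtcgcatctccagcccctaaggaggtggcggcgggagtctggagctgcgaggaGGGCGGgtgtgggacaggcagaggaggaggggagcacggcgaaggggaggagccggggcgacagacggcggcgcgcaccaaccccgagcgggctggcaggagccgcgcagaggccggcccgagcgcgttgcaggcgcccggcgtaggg
The motifs searched, on both strands, were AGGTCA (a nuclear receptor half-site), TGACGTCA (the cAMP response element), TGANTCA (bound by AP-1), TTGGCA (an NFI half-site), AACAAT (bound by SOX proteins), GGGCGG (bound by Sp1) and the core promoter element TATAAA. The Sp1 motif GGGCGG was in 4 of these 5 windows and in 32.7% of the 32851 mouse promoter windows of the same length. The motif TATAAA was in the Gpc5 window and in 12.4% of all windows. The Tnr window held none of the 7 motifs. Its GC content was 46.8%, against 72.8% for Chst2 and 71.6% for Ptprz1. A match describes letters in a window and no binding was measured.

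The values are log2 signals that the authors had normalized by RMA, so 1 unit is a 2-fold difference, and levels of different genes cannot be ranked because each probe set has its own response. All 10 genes had a probe set on the array. Bcan, Ncan, Chst2, Ptprz1, Cspg5, Gpc5 and Vcan lay in the brighter part of the array, with mean signals over the 24 arrays between 8.61 and 11.70, at or above the 81.2 percentile of all probe sets. Tnc averaged 7.46 and Tnr 6.55, in the middle of the range. Hapln1 did not stand out from dim probe sets: its 4 probe sets averaged between 2.81 and 3.81, at the 1.3 to 11.1 percentile of mean signal, and no detection call was used here by which its expression could be judged. As a coarse check of the tissue, the 10 relay neuron markers lay between the 59.0 and 98.6 percentile of mean signal and the 7 measured myelin markers between the 6.6 and 98.0, ranks that do not order levels between genes. The plot of all 24 arrays shows the 10 genes on a common log2 span.

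**Figure D1:**
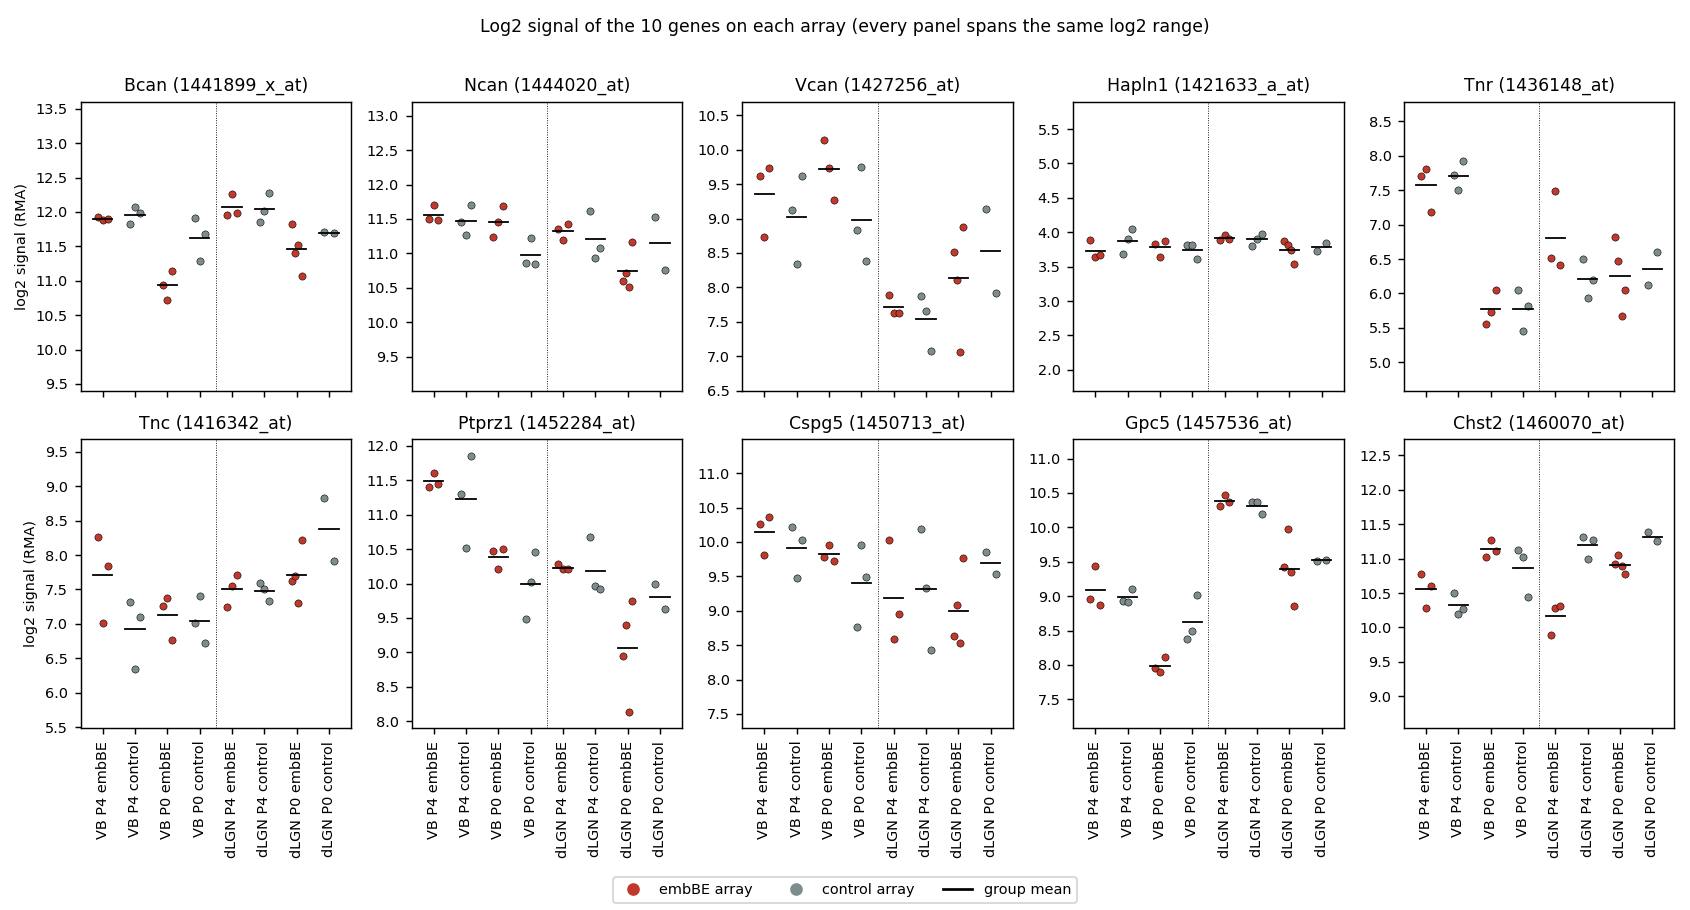
Log2 signal (vertical axis, RMA) of the brightest probe set of each of the 10 genes on each of the 24 arrays, by nucleus, age and treatment, with red points for embBE arrays, grey points for control arrays and a black bar at each group mean. Tnr in VB lay between 7.18 and 7.92 at P4 and between 5.45 and 6.05 at P0, Gpc5 was higher in every dLGN P4 array than in any VB array, and Chst2 was lower in the 3 dLGN P4 embBE arrays than in the 3 control arrays.

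The first question was how the matrix genes changed between birth and P4 in each nucleus, and the comparison averaged the age differences of embBE and control arrays. In VB, Tnr, Ptprz1, Gpc5 and Bcan were higher at P4 and Chst2 was lower, each at an adjusted p under 0.05 (limma with Benjamini-Hochberg adjustment over all 18194 genes). That is 5 of the 10 genes, where 13.4% of all genes passed. For Gpc5 and Bcan, the VB difference contains the VB P0 values known when the members were chosen. In dLGN, Gpc5 was higher and Chst2 lower, 2 of the 10 genes, where 4.72% of all genes passed. The median difference over the 10 genes was 0.36 in VB and 0.17 in dLGN, against medians over all genes of −0.04 in VB and 0.02 in dLGN.

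Tnr, whose protein cross-links lecticans and is made by oligodendrocyte lineage cells and some neurons, had the largest age difference of the 10 genes in VB. Its signal was 7.18 at the lowest, 7.72 at the median and 7.92 at the highest of 6 arrays at P4, against 5.45, 5.78 and 6.05 at P0. No P4 array overlapped a P0 array. The log2 difference was 1.86 ± 0.14 (SE), a 3.64-fold difference with adjusted p = 1.63e-05, the 12th smallest p of all genes. It was of the same size in embBE arrays (1.79) and in control arrays (1.94).

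In dLGN, Tnr ranged over 5.94, 6.46 and 7.50 (lowest, median, highest) at P4 and over 5.67, 6.29 and 6.82 at P0, and the groups overlapped. The difference was 0.20 ± 0.24 (SE), with a 95% confidence interval from −0.31 to 0.72 and adjusted p = 0.740. The age difference in VB exceeded that in dLGN by 1.67 ± 0.29 (SE), adjusted p = 0.0153, in the contrast over the 24 arrays. Tnr was the only gene of the 10 to pass this test, which 0.269% of all genes passed. The call was lost without the dLGN P0 control array 39_5, where the difference was 1.55 with adjusted p = 0.0716. Tnr has 1 probe set, so no second one could be set beside it.

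Ptprz1, a receptor-type phosphatase whose extracellular part carries chondroitin sulphate and binds tenascins and contactin, was higher at P4 in VB. Its 6 VB arrays had 10.51, 11.42 and 11.86 (lowest, median, highest) at P4, against 9.49, 10.33 and 10.51 at P0. The groups did not overlap, although the highest P0 array and the lowest P4 array came close. The difference was 1.16 ± 0.21 (SE), adjusted p = 0.0032. Its probe set 1418690_at gave 1.11 (adjusted p = 0.0010 among all probe sets), and 1427019_at gave 0.54, which was not past the threshold when every probe set was tested (adjusted p = 0.0582). In dLGN the Ptprz1 difference was 0.78 ± 0.25 (SE) with adjusted p = 0.103.

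Gpc5, a glypican held on the cell surface by a lipid anchor and carrying heparan sulphate, was higher at P4 in both nuclei. In VB it had 8.87, 8.95 and 9.44 (lowest, median, highest of 6) at P4, against 7.89, 8.25 and 9.02 at P0, a difference of 0.73 ± 0.13 (SE) with adjusted p = 0.0027. That VB difference was 1.10 in embBE arrays and 0.35 in control arrays, and it contains the VB P0 values known when the members were chosen. In dLGN it had 10.20, 10.37 and 10.47 at P4, against 8.85, 9.47 and 9.97 at P0, and the groups did not overlap. The dLGN difference was 0.89 ± 0.16 (SE) with adjusted p = 0.0080. The 2 nuclei did not differ in this age change beyond its error, at −0.16 ± 0.21 (SE).

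Bcan, which encodes brevican, the lectican that accumulates as the brain matures, was higher at P4 in VB by 0.65 ± 0.11 (SE), adjusted p = 0.0023. Its second probe set, 1416718_at, gave 0.75 in VB. The VB age difference was 0.97 in embBE arrays and 0.34 in control arrays, and it contains the VB P0 values known when the members were chosen. The gap between embBE and control arrays contains them too and was not tested. In dLGN, Bcan differed by 0.48 ± 0.13 (SE) with no overlap between P4 and P0 arrays but adjusted p = 0.0654, and 1416718_at by 0.67 with adjusted p = 0.0246 among all probe sets.

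Chst2, the enzyme that sulphates N-acetylglucosamine in keratan sulphate chains, was lower at P4. In VB its signal was 10.19, 10.39 and 10.77 (lowest, median, highest of 6) at P4, against 10.45, 11.07 and 11.28 at P0, a difference of −0.56 ± 0.13 (SE) with adjusted p = 0.0119. Its second probe set, 1422758_at, went the other way in VB (0.22, adjusted p = 0.271 among all probe sets), and the call was lost when the 3 probe sets were averaged (−0.17, adjusted p = 0.153). In dLGN the difference was −0.44 ± 0.11 (SE) with adjusted p = 0.0362. The dLGN value came from −0.75 in embBE arrays and −0.12 in control arrays. That call was lost under cyclic loess and when any of 7 single arrays was left out.

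The remaining members did not pass in either nucleus. Ncan, the neurocan gene, differed by 0.30 in VB (adjusted p = 0.0912) and by 0.32 in dLGN (adjusted p = 0.361), but its probe set 1434679_at rose by 0.85 in VB (adjusted p = 0.0008 among all probe sets) and gave −0.02 in dLGN. Cspg5, the neuroglycan C gene, differed by 0.41 in VB (adjusted p = 0.169). Vcan differed by −0.16 in VB and −0.71 in dLGN (adjusted p = 0.246), Tnc by 0.22 in VB and −0.55 in dLGN (adjusted p = 0.125), and Hapln1 by 0.04 in VB and 0.14 in dLGN. Only a second and similarly dim Hapln1 probe set, 1438020_at, passed in VB (0.69, adjusted p = 0.0190 among all probe sets).

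The age comparison moved with glial markers and, in VB, with RNA quality. The Gapdh 3′ minus 5′ gap was 3.03 to 3.49 in the 6 VB arrays at P4, against 3.64 to 4.84 at P0, with no overlap. The actin gap was 1.95 to 3.14 at P4, against 2.20 to 4.29 at P0, and the same 5 genes passed in VB with it as a covariate. Of 14 astrocyte and radial glia markers, 6 were higher and 1 lower at P4 in VB, and the mean signal of the list was between 10.24 and 10.56 at P4, against 9.57 to 10.05 at P0. In dLGN, 4 of the 14 were higher, with list means from 10.09 to 10.47 at P4, against 9.27 to 9.97 at P0. Of 8 oligodendrocyte precursor markers, 6 were higher in VB and 2 in dLGN, with list means from 9.17 to 9.44 at P4 and from 8.56 to 8.84 at P0 in VB, and from 8.68 to 9.21 at P4 and from 8.06 to 8.88 at P0 in dLGN. Their part in the member results was not tested. In tissue of mixed cells, fewer cells of a type and less RNA per cell cannot be told apart.

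**Figure D2:**
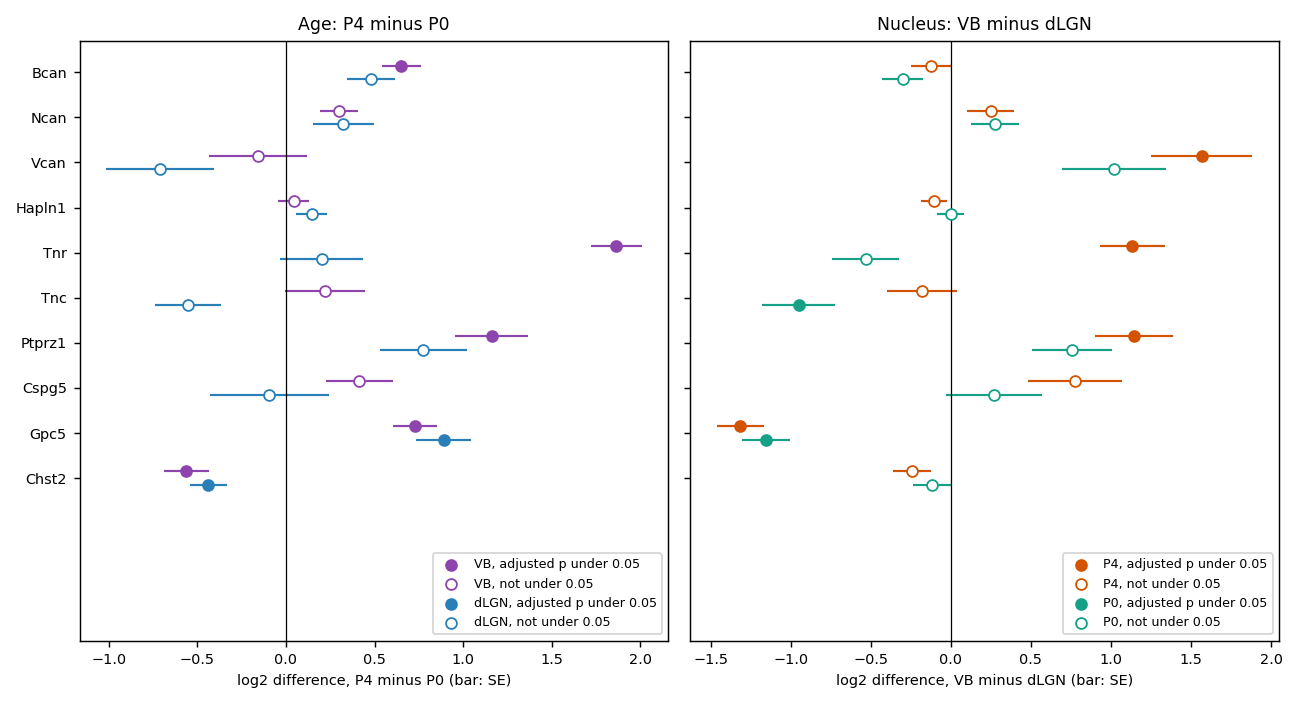
Log2 difference and its SE (horizontal axis) for each of the 10 genes, at the left P4 minus P0 in VB (purple) and dLGN (blue), and at the right VB minus dLGN at P4 (orange) and P0 (green). Filled points have an adjusted p under 0.05. Tnr stands at 1.86 in VB and 0.20 in dLGN, and Gpc5 at −1.31 and −1.15 on the right.

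The second question was which of these genes differ between the somatosensory and the visual nucleus. At P4, Vcan, Tnr and Ptprz1 were higher in VB and Gpc5 was lower in VB, 4 of the 10 genes, where 19.3% of all genes passed. At P0, Tnc and Gpc5 were lower in VB, 2 of the 10 genes, where 7.66% of all genes passed. On the brightest probe sets, Gpc5 was the only member that passed at both ages. Other probe sets of Ptprz1 (1418690_at) and Vcan (1427257_at) also passed at both. At P4, Ncan passed on 1434679_at (0.63, adjusted p = 0.0046 among all probe sets) but not on 1444020_at (0.25) or 1423604_at (0.03). A dim Hapln1 probe set, 1438020_at, passed at P4 too (0.53, adjusted p = 0.0359), where the brightest one gave −0.10. Chst2 did not pass at P4 (−0.24, adjusted p = 0.132), but that averaged 0.39 among embBE arrays and −0.88 among control arrays. Its probe set 1422758_at gave 0.76 among embBE arrays and −0.18 among control arrays. At P0 Chst2 stood at −0.12, from 0.22 in embBE arrays and −0.46 in control arrays.

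Gpc5 differed by −1.31 ± 0.15 (SE) at P4 (adjusted p = 2.91e-06) and by −1.15 ± 0.15 (SE) at P0 (adjusted p = 3.67e-05). At P4 its VB arrays reached at most 9.44 and its dLGN arrays at least 10.20, with no overlap. At P0 the highest VB array, 9.02, exceeded the lowest dLGN array, 8.85. The difference at P4 was −1.30 among embBE arrays and −1.33 among control arrays. At P0 it was −1.41 among embBE arrays and −0.89 among control arrays, and it contains the VB P0 values known when the members were chosen.

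Vcan, whose product versican is the large lectican of early brain matrix, had 8.34, 9.37 and 9.73 (lowest, median, highest of 6) in VB at P4, against 7.08, 7.64 and 7.89 in dLGN. The groups did not overlap, and the difference was 1.57 ± 0.31 (SE), adjusted p = 0.0019. The probe sets 1421694_a_at (0.78) and 1427257_at (0.53) gave the same direction and also passed. The other 5 Vcan probe sets were dim, averaging between 2.91 and 4.43, and the mean over all 8 gave 0.35, which still passed. At P0 the Vcan difference was 1.02 ± 0.32 (SE), adjusted p = 0.0595, from 1.58 in embBE arrays and 0.45 in control arrays, and 1427257_at gave 0.79 (adjusted p = 0.0032 among all probe sets). Tnr was higher in VB at P4 by 1.13 ± 0.21 (SE), adjusted p = 0.0007, and stood at −0.53 at P0 (adjusted p = 0.142). Its P4 difference was 0.76 among embBE arrays and 1.51 among control arrays, and the VB and dLGN arrays overlapped.

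Ptprz1 was higher in VB at P4 by 1.14 ± 0.24 (SE), adjusted p = 0.0030, with 1.60 on 1418690_at and 0.61 on 1427019_at. At P0 the brightest Ptprz1 probe set gave 0.76 (adjusted p = 0.0701), from 1.33 in embBE arrays and 0.18 in control arrays, and 1418690_at gave 1.31 (adjusted p = 0.0040 among all probe sets) with no overlap between the nuclei. Cspg5 differed by 0.77 at P4 (adjusted p = 0.0629). Tnc, the tenascin of germinal zones and immature astrocytes, had 6.72, 7.14 and 7.41 (lowest, median, highest of 6) in VB at P0, against 7.30, 7.81 and 8.83 in dLGN. The difference was −0.95 ± 0.23 (SE) with adjusted p = 0.0112. It came from −0.58 among embBE arrays and −1.33 among control arrays, with 2 control arrays in dLGN. The Tnc call was lost without the dLGN P0 control array 35_1 (adjusted p = 0.110).

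Array quality also differed between the nuclei. The Gapdh 3′ minus 5′ gap at P4 was 3.03 to 3.49 in the VB arrays, against 3.63 to 4.65 in the dLGN arrays, with no overlap. It was not used as a covariate. The difference between the 3′ and 5′ actin control probe sets, which widens as RNA is shortened, was 1.95 to 4.29 in VB (median 2.27) and 2.21 to 4.27 in dLGN (median 3.76). With that gap as a covariate, an alternative chosen after the data were seen, Vcan at P4 was 0.92 (adjusted p = 0.143) and Ptprz1 0.64 (adjusted p = 0.197), while Tnr at 1.30 (adjusted p = 0.0028) and Gpc5 at −1.24 (adjusted p = 0.0002) still passed. Within groups, the Cspg5 signal moved with the SD of all probe sets on an array (r = 0.88 over the 12 VB arrays and 0.93 over the 12 dLGN arrays), as did Ptprz1 (0.73 and 0.87), and Bcan moved against it (−0.77 and −0.81). Vcan (0.50 and 0.73), Ncan (0.55 and 0.73) and Tnc (0.41 and 0.55) also moved with that SD, and Hapln1 (−0.28 and −0.71) against it. Tnr (−0.23 and 0.04), Gpc5 (0.27 and −0.12) and Chst2 (−0.05 and −0.16) stood nearer to 0. Cell markers moved with the nucleus too. At P4, 3 of 8 oligodendrocyte precursor markers were higher in VB (median 0.35, with 8 of 8 above 0), 4 of 14 astrocyte and radial glia markers were higher and 2 lower (median 0.30), and 3 of 7 myelin markers were higher and 1 lower. Of 10 relay neuron markers 3 were higher (median 0.61), and of 10 markers of adjoining GABAergic nuclei 3 were lower (median −0.35). The part of cell markers in the nucleus differences was not tested.

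The third question was whether embryonic loss of both eyes changed these genes, in each nucleus at each age. Calls followed the threshold of the study's methods, which needs both a 1.5-fold difference and an unadjusted p under 0.05, and no member in any of the 3 tested comparisons had an adjusted p under 0.05. In dLGN at P4, Chst2 was called as lower in embBE, 1 of the 10 genes, where 0.198% of all genes were called. Tnc was the called member in VB at P4, where it was higher in embBE and 0.159% of all genes were called, and in dLGN at P0, where it was lower and 0.445% were called. The plot of arrays around their control mean shows all 4 comparisons.

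**Figure D3:**
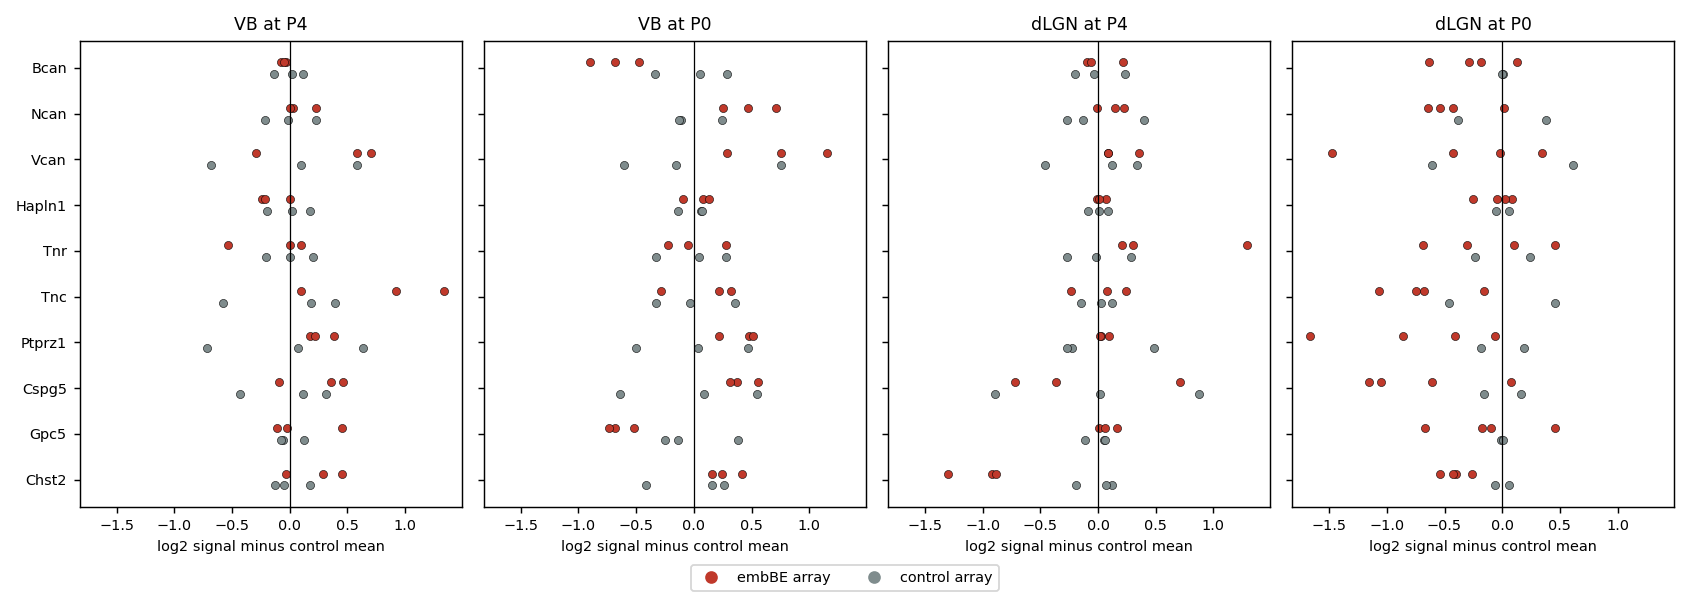
Log2 signal of each array minus the mean of the control arrays of its nucleus and age (horizontal axis), for the 10 genes (rows), with red points for embBE arrays above grey points for control arrays. The 3 dLGN P4 embBE arrays of Chst2 lie apart from the 3 control arrays, and those of Bcan and Gpc5 in VB at P0 lie below theirs.

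Chst2 had 9.89, 10.28 and 10.31 in the 3 embBE arrays of dLGN at P4, against 11.32, 11.00 and 11.27 in the 3 control arrays. The groups did not overlap, which was true of 4.85% of all genes. The difference was −1.04 ± 0.14 (SE), a 2.05-fold lower signal in embBE with a 95% confidence interval from −1.35 to −0.72. It had the smallest p of all genes in that comparison, 1.14e-05 in limma, and adjusted p = 0.176. The probe set 1422758_at had 7.25, 7.03 and 6.90 in embBE arrays, against 8.29, 7.70 and 7.67 in control arrays, a difference of −0.83 (unadjusted p = 0.0006, adjusted p = 1 among all probe sets). The dim probe set 1442904_at gave 0.01. Every single-array omission kept the call, with differences between −1.13 and −0.90. Over all alternatives the adjusted p ranged between 0.0044, with array weights, and 1, and the difference fell to −0.62 when the 3 probe sets were averaged. Of the cell marker lists, only that of vessels, mural cells and meninges separated the groups in this comparison. Its means were 7.01 to 7.09 in embBE arrays, against 6.68 to 6.97 in control arrays. Of its 11 markers 7 were above 0 and 1 was called higher. The part of cell markers in the Chst2 values was not tested.

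In dLGN at P0, Chst2 had 10.92, 11.06, 10.89 and 10.78 in embBE arrays, against 11.38 and 11.26 in control arrays. The groups did not overlap there either, as was true of 9.98% of all genes, but the difference of −0.41 ± 0.15 (SE, unadjusted p = 0.0212, adjusted p = 0.851) was under the fold threshold. The embBE effect at P4 minus that at P0 was −0.63 ± 0.21 (SE), adjusted p = 1, and no gene passed that test (143 had an unadjusted p under 0.05 in limma). In VB at P4, Chst2 was 10.77, 10.29 and 10.61 in embBE arrays, against 10.50, 10.19 and 10.27 in control arrays, a difference of 0.24 ± 0.18 (SE, adjusted p = 0.751). The embBE effect in dLGN minus that in VB at P4, a test added after the data were seen, was −1.27 ± 0.24 (SE), again the smallest p of all genes, with adjusted p = 0.469. Whether this contrast was known when the members were proposed is not recorded, so its p may not be independent of the choice.

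**Figure D4:**
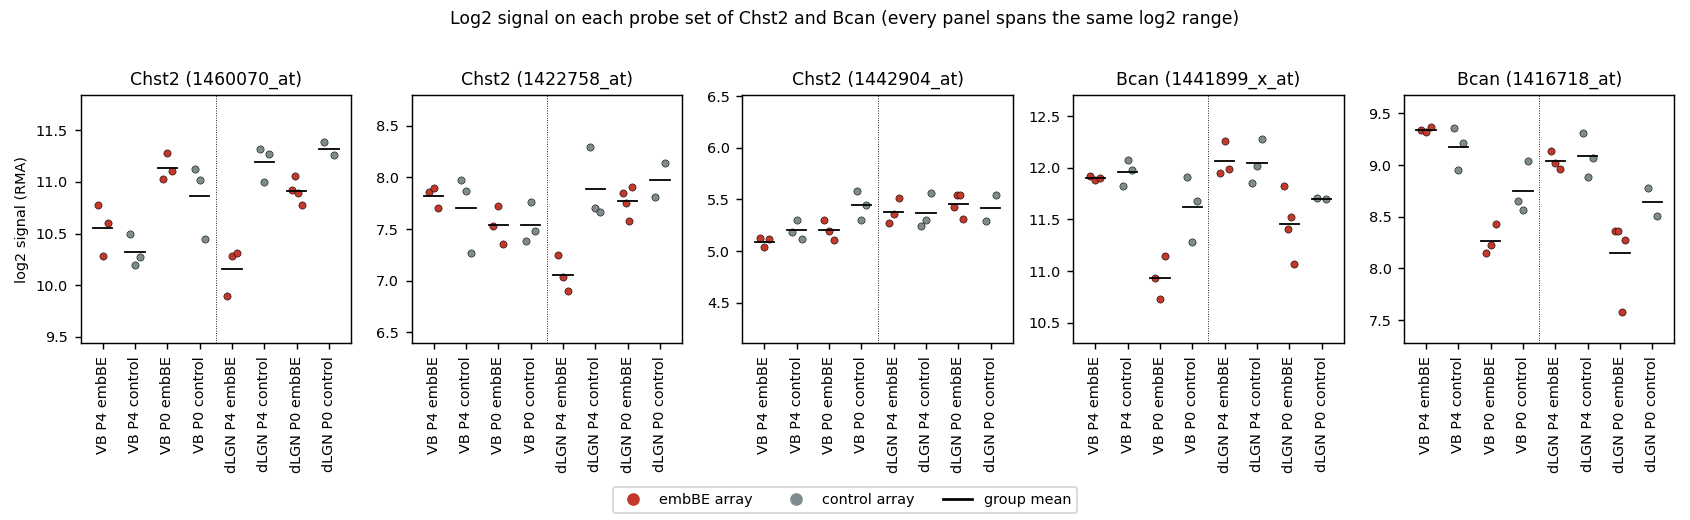
Log2 signal (vertical axis, RMA) on each of the 3 probe sets of Chst2 and the 2 of Bcan, for the 24 arrays by nucleus, age and treatment, with red points for embBE arrays, grey points for control arrays and bars at group means. In dLGN at P4 the 2 brighter Chst2 probe sets separate embBE from control arrays, by −1.04 and −0.83, and both Bcan probe sets do so in VB at P0, by −0.69 and −0.49.

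Tnc in VB at P4 was 8.26, 7.02 and 7.84 in embBE arrays, against 7.31, 6.34 and 7.10 in control arrays, and the groups overlapped. The difference was 0.79 ± 0.32 (SE), unadjusted p = 0.0288 and adjusted p = 0.751 in limma. The call was lost without the control array 36_3 (0.50), which stands apart from other VB arrays, and without the embBE arrays 24_4 (0.51) or 40_3 (0.72). In dLGN at P0, Tnc was 7.63, 7.70, 7.30 and 8.21 in embBE arrays, against 8.83 and 7.92 in control arrays, a difference of −0.67 ± 0.27 (SE, unadjusted p = 0.0297, adjusted p = 0.851). That call was lost without the control array 35_1 (−0.21) and without the embBE arrays 39_3 (−0.53) or 35_3 (−0.64). Its second probe set, 1456344_at, is dim and gave 0.07 in VB at P4 and −0.20 in dLGN at P0.

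Other members in dLGN at P0 were lower in most embBE arrays without being called. Ptprz1 differed by −0.75 ± 0.36 (SE, adjusted p = 0.851), Cspg5 by −0.68 ± 0.49 (SE), Ncan by −0.40 ± 0.25 (SE) and Bcan by −0.25 ± 0.20 (SE). Other probe sets gave −1.002 for Ptprz1 (1418690_at, unadjusted p = 0.0399, adjusted p = 0.869) and −0.50 for Bcan (1416718_at, unadjusted p = 0.0376, adjusted p = 0.869). In all, 0 of the 10 members lay above 0, where the median over all genes was 0.03. The embBE arrays of that group include 39_3 and 35_3, whose spread of signals was narrow (SD 2.16 and 2.22, against 2.32 and 2.35 in the 2 control arrays). Of the 14 astrocyte markers, 3 were called lower in the same comparison (Mlc1, Fabp7 and Aldh1l1), with list means between 9.27 and 9.65 in embBE arrays, against 9.86 and 9.97 in control arrays. Their part in the member values was not tested. In dLGN at P4, Tnr gave 0.60 ± 0.32 (SE, unadjusted p = 0.0884), with a single embBE array, 36_2, at 7.50 and the others at 6.51 and 6.42, against 6.50, 5.94 and 6.19 in control arrays.

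For VB at P0 the members were proposed with calls of Bcan and Gpc5 in that comparison known, so its values are a description with no test. Bcan had 10.94, 10.72 and 11.15 in embBE arrays, against 11.91, 11.28 and 11.67 in control arrays, a difference of −0.69, and its second probe set gave −0.49. Gpc5 had 7.95, 7.89 and 8.11 in embBE arrays, against 8.38, 8.50 and 9.02 in control arrays, a difference of −0.65. Vcan had 10.14, 9.74 and 9.27 in embBE arrays, against 8.83, 9.74 and 8.38 in control arrays, a difference of 0.73 with overlapping groups. Its probe sets 1421694_a_at and 1427257_at gave 0.06 and 0.40, and its dim probe sets lay between −0.21 and 0.10.

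Those 3 members reached a fold change of 1.5 in VB at P0, as did 1.5% of all genes. Bcan, Ncan and Gpc5 did not overlap between groups, which held for 12% of all genes. Ncan stood at 0.48 on its brightest probe set, at 0.25 on 1434679_at and at −0.15 on 1423604_at. Of the rest, on their brightest probe sets, Cspg5 stood at 0.41, Ptprz1 at 0.40, Chst2 at 0.27, Tnc at 0.08, Hapln1 at 0.04 and Tnr at 0.00. Other probe sets gave −0.36 (1427019_at) and 0.14 (1418690_at) for Ptprz1, and −0.002 (1422758_at) and −0.24 (1442904_at) for Chst2. The control array 35_1 had the widest actin gap of the VB arrays (4.29) and the narrowest spread (SD 2.22). Without it, Vcan and Gpc5 were the members at a fold of 1.5 and Bcan stood at −0.54. In the same comparison all 10 measured markers of adjoining GABAergic nuclei were below 0 (median −0.55), with list means from 5.39 to 5.59 in embBE arrays and from 5.42 to 7.13 in control arrays. Of 10 relay neuron markers 9 were above 0 (median 0.34), with list means from 10.20 to 10.29 in embBE arrays and from 9.75 to 10.24 in control arrays, and of 9 general neuron markers 8 were above 0 (median 0.33). Their part in the member values was not tested.

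At P4 in VB, Bcan differed between embBE and control arrays by −0.06, with a 95% confidence interval from −0.39 to 0.28, and Gpc5 by 0.11, from −0.28 to 0.49. In dLGN at P4, Bcan differed by 0.02 and Gpc5 by 0.08. The change of the embBE difference with age in VB was not tested, since it contains the VB P0 values.

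Another 119 matrix genes, in 8 lists, show how the surroundings of the 10 behaved. In VB, 18 were higher and 10 lower at P4 than at P0, where 13.4% of all genes passed. In dLGN 6 were higher and 4 lower, where 4.72% of all genes passed. In the hyaluronan list, Cemip2, a cell-surface hyaluronidase, was lower at P4 by 1.49 in VB and by 1.79 in dLGN, and the hyaluronan synthases Has3 and Has2 were lower in VB by 0.81 and 0.60. Of the 8 measured hyaluronan genes, 4 were lower in VB (the fourth being Hyal2) and 1 in dLGN. Chst15 and Csgalnact1, which sulphate and start chondroitin sulphate chains, were higher in VB by 0.88 and 0.74 and in dLGN by 0.48 and 0.48.

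Among the other heparan sulphate proteoglycans, Gpc2 was lower at P4 by 1.26 in VB and 1.30 in dLGN, opposite in sign to Gpc5, and Sdc4 was higher by 0.75 and 0.61. Cntn1, a contactin bound by Ptprz1 and tenascin-R, was higher in VB by 0.92. Nfasc, whose product neurofascin is an adhesion molecule of nodes of Ranvier, was the 1 of the 119 that passed the test of age change in VB minus age change in dLGN (0.67 ± 0.14 SE, adjusted p = 0.0461). That test was passed by 0.269% of all genes. Between nuclei at P4, 24 of the 119 were higher in VB and 22 lower, where 19.3% of all genes passed. Among them were Spock1 (2.04), Sulf1 (2.12), Hs6st2 (−2.19), Reln (−1.83) and Gpc4 (−1.06). Like Gpc5, Gpc4 was lower in VB at both ages.

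After embBE, 0 of the 119 were called in VB at P4, 1 in dLGN at P0 and 1 in dLGN at P4. The shares of all genes called were 0.159%, 0.445% and 0.198%. Reln, the gene of the secreted matrix protein reelin, was 8.21 to 8.93 in 4 embBE arrays, against 8.71 and 10.40 in 2 control arrays of dLGN at P0, with overlap, a difference of −1.07 ± 0.39 (SE, unadjusted p = 0.0177, adjusted p = 0.851). Dcn, the decorin gene, was 5.54 to 8.19 in 3 embBE arrays, against 5.47 to 5.73 in 3 control arrays of dLGN at P4, with overlap, a difference of 1.07 ± 0.48 (SE, unadjusted p = 0.0463, adjusted p = 1). Col1a2, a fibroblast collagen gene on the list of vessel and meningeal markers, was called in the same direction (1.02).

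Over the 24 arrays the members moved with different genes. The 3 genes most like each by Pearson's r, a description in which nucleus, age and array quality are shared, were Mmd2 (0.96), Tsc22d4 and Cystm1 for Bcan, and Mlc1 (0.97), Etv5 and Vcam1 for Ptprz1. For Tnr they were Slc7a2 (0.89), Bcas1 and Notch2, and for Gpc5 they were Cryz (0.92), Gcnt1 and Adgra1. Cspg5 was most like Nae1 (0.97), Vcan most like Cxxc4 (0.93), Ncan most like Fignl1 (0.88) and Tnc most like Htr4 (0.77). Chst2 and Hapln1 had weaker neighbours, Arv1 (0.68) and Map2k3os (0.76). Among the members themselves the closest pair was Ncan and Ptprz1 (0.83).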

How the data were processed

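The authors deposited log2 expression values from Affymetrix mouse 430 2.0 arrays, normalized by RMA (the sources used here name no version). RNA from pooled, microdissected tissue had been amplified in 2 rounds before hybridization, which shortens transcripts towards the 3′ end and can lower probe sets far from it. No detection calls or probe intensities were used here. Of 45101 probe sets, 34958 had 1 gene symbol in the platform annotation, 932 had several and 9211 had none, and symbols were updated through their gene identifiers. A gene was read on its brightest probe set by mean signal.

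Each contrast was a linear model in limma 3.58.1 (R 4.3.3), within the 12 arrays of a nucleus for age and treatment, and over all 24 arrays, with the label code as a random block, for contrasts between nuclei. Benjamini-Hochberg adjustment ran over all 18194 genes, and over all probe sets where a single probe set is given. Age and nucleus contrasts averaged embBE and control arrays and were called at an adjusted p under 0.05. Treatment contrasts were called where the difference was 1.5-fold or more and the unadjusted p was under 0.05, as in the study's methods. The fits were tested on simulated data. Plots used matplotlib 3.10.9 (Python 3.11.15).

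The members and gene lists were chosen with earlier results of these data known, so treatment contrasts may not be independent of the choice, and embBE against control in VB at P0 was given no test. From each list, up to 4 genes with the largest difference among those that met the call rule were named. The 3 genes most like each member were named by Pearson's r. Alternatives changed the probe set rule, the filter on dim genes, the normalization, the variance model, array weights, the arrays in the fit, the test and the replicate block. Every probe set in the fit, array SD or actin gap as a covariate, and the difference of treatment effects between nuclei were added after the data were seen.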

Additional observations from a re-analysis of the deposited data

Results flagged for a closer look

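The age difference of Tnr was not the same in the 2 nuclei. Its log2 signal differed between P4 and P0 by 1.86 ± 0.14 (SE) in VB and by 0.20 ± 0.24 (SE) in dLGN, and the difference between these, tested as an interaction in limma over the 24 arrays, was 1.67 ± 0.29 (SE) with adjusted p = 0.0153. Among embBE arrays the age difference was 1.79 in VB and 0.56 in dLGN, and among control arrays it was 1.94 in VB and −0.15 in dLGN. Tnr was higher in every VB P4 array than in every VB P0 array, while P4 and P0 arrays of dLGN overlapped. Over 11 alternative settings the difference was between 1.66 and 1.98, and over 24 omissions of a single array between 1.55 and 1.84, with the lowest of these (adjusted p = 0.0716, without the dLGN P0 control array 39_5) not past the threshold. In the same test, which 0.269% of all genes passed (median −0.03), 0 of 8 oligodendrocyte precursor markers passed (median 0.16, with 5 above 0), and 1 of 14 astrocyte and radial glia markers did (median −0.06, with 7 above 0). That marker was Aqp4, the water channel of mature astrocytes, at 2.79. The Gapdh 3′ minus 5′ gap was 3.03 to 3.49 in the VB P4 arrays, against 3.63 to 4.88 in all other arrays, with no overlap. Tnr has 1 probe set. The part of these markers and of the Gapdh gap in the Tnr values was not tested.

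Within the 4 embBE arrays of dLGN at P0, the only group of 4, no member had an array far from the others by Dixon's gap ratio (10 genes screened). The smaller groups were not screened.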

How the results depend on the processing

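For P4 against P0 in VB, 5 genes passed as reported, and between 5 and 7 passed under all 11 alternatives and all 12 omissions of an array. In dLGN, 2 passed for age as reported, 6 with array weights, 7 with array SD as a covariate, and between 1 and 3 without an array. For VB against dLGN at P0, 2 passed as reported, 4 with cyclic loess, 6 with array weights, 4 with array SD as a covariate, 4 without the VB control arrays 35_1 and 36_3, and between 2 and 4 without an array. At P4, 4 passed as reported, 6 with array weights, 2 with the actin gap as a covariate, and between 4 and 5 without an array. For the difference of age changes between nuclei, 1 passed as reported, 2 with array weights (Tnr and Tnc), and between 0 and 1 without an array. For embBE against control in VB at P4, 1 was called as reported and 0 with the mean of probe sets, with array SD as a covariate, without the arrays 35_1 and 36_3 or with the methods' t-test, and between 0 and 1 without an array. In dLGN at P0, 1 was called as reported, 2 with cyclic loess, array weights or the actin gap, 0 with array SD, with all 24 arrays in the fit, with only the 2 groups, with the methods' t-test or with the first label number as a replicate block, and between 0 and 2 without an array. With that block Tnc was −0.59 ± 0.30 (SE, unadjusted p = 0.0827). In dLGN at P4, 1 was called as reported, 2 with array weights or all 24 arrays (Tnr added), and between 1 and 2 without an array. For VB at P0, where no test was made, 3 members reached the fold as reported, 1 (Gpc5) with array SD or the actin gap as a covariate, and between 2 and 5 without an array. The causes were not tested. The replicate block changed no other call, nor did leaving it out of the contrasts between nuclei, where its estimated correlation was −0.02. So small a correlation leaves the block little to change. Of 11 pairs of VB and dLGN arrays with 1 code, 3 correlated above 0.1 in their deviations from group means (r between −0.55 and 0.72). Means of so few arrays tie those deviations together, so this check cannot show whether same-numbered arrays share animals. No difference changed sign in a called result. Counts over all genes moved more than those of the members under array weights, which passed 3800 genes for age in dLGN, against 858 as reported, and 2687 for the difference of age changes, against 49. The number of arrays limits the precision, above all in dLGN at P0 with 2 controls, and Hapln1 was too dim for its differences to be read.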
